A study of Homo sapiens with 9 samples.

Results

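The genes described here are 10 genes in which other studies have reported changed use of 3′ splice sites when the splicing factor SF3B1 carries the K700E substitution: MAP3K7, BRD9, ENOSF1, SLC3A2, DVL2, SEPTIN6, DLST, DPH5, MBD1 and UBA1. Their members in the data are all SF3B1 binding sites whose centre lies inside the RefSeq span of one of these genes, on the strand of that gene. This gave 239 sites, 0.247% of the 96852 sites in the deposited list. All 10 genes had at least 1 site, against 38% of 20037 protein-coding genes, and 9 of the 10 had at least 5 sites, against 23.1%. The genes were chosen with earlier results of these data known, so these shares are a description and not independent evidence of enrichment.

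The study used iCLIP, in which ultraviolet light joins a protein to the RNA it touches and sequencing marks the joined nucleotides in K562 cells, a human leukaemia line in wide use. SF3B1 was precipitated from K562 cells with unmutated SF3B1 (3 samples) and from K562 cells heterozygous for K700E (2 samples), and U2AF2, the protein that binds the polypyrimidine tract, from unmutated K562 cells (4 samples). All cells received UV light of 254 nm at 400 mJ/cm2, and none carried a further allele or treatment in the labels. The SF3B1 lines came from 1 supplier and the cells for U2AF2 from another. The labels attach the list to the 3 unmutated SF3B1 samples, whereas its header speaks of sites reproduced by all replicates of either condition, so single sites are not assigned to a genotype, and the other 6 samples were not analysed here. The list holds positions only. Read numbers and values for single replicates are not part of it, so the depth is unknown, no spread between cultures can be given, and no site is ranked above another. The labels describe K562 as derived from a lymphoid leukaemia, whereas the line is generally known as myeloid and erythroid. Of 5 genes counted here as erythroid markers, 4 had sites, from 6 in GATA1 to 121 in TFRC with KLF1 at 0. The 5 lymphoid marker genes had 0 sites each. Only 38% of all protein-coding genes had a site, and the markers were chosen after the data were seen. These counts therefore do not decide the lineage.

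SF3B1 is the largest protein of the SF3B complex of the U2 small nuclear ribonucleoprotein. It clamps the branch point region of an intron, where U2 RNA pairs with the bases around the branch point adenosine, upstream of the 3′ splice site. K700E is the most frequent SF3B1 substitution in myelodysplastic syndromes and chronic lymphocytic leukaemia. With it, the spliceosome is known to use other branch points and, with them, cryptic 3′ splice sites that usually lie a short way upstream of the normal ones. Several of the 10 genes, MAP3K7 and BRD9 among them, have been used as readouts of that change. Coordinates are given on GRCh38. Exon positions were not used, so each site is placed by its distance from the start of the gene, not by intron or splice site.

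The sequence could be read for 1 of the 239 sites, because that site lies inside a RefSeq promoter window, the 250 bases before and 50 bases after an annotated start. It is in SLC3A2, the gene of the heavy chain of an amino acid transporter. It is shown because it is the only listed site whose letters could be read. The stretch is chr11:62881449-62881549 on the plus strand of GRCh38.p14 (RefSeq), written as DNA. The capitals mark the 5 bases of the binding site, and the 50 bases on each side of its centre are included.
SLC3A2 site: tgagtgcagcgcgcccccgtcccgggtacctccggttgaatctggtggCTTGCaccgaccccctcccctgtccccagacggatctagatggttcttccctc
The site occupies positions 62881497 to 62881501, 200 nt upstream of one annotated SLC3A2 start and downstream of another. Of the 20 bases that follow it, 16 are pyrimidines, against 11 of the 20 bases before it. The stretch as a whole holds 62.4% pyrimidines. Promoter windows seldom held a site: 203 of 35116 windows did (0.578%), and 1 of the 14 windows of the listed genes. Over the 280 sites that could be read in such windows, T made up 57.1% of the site bases, against 21.3% of all window bases, and G made up 9.43% against 29.2%. These windows hold few of the 96852 sites, and most of their bases lie before an annotated start. A base preference of SF3B1 was not tested. The SLC3A2 site has T at 2 of its 5 bases.

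**Figure D1:**
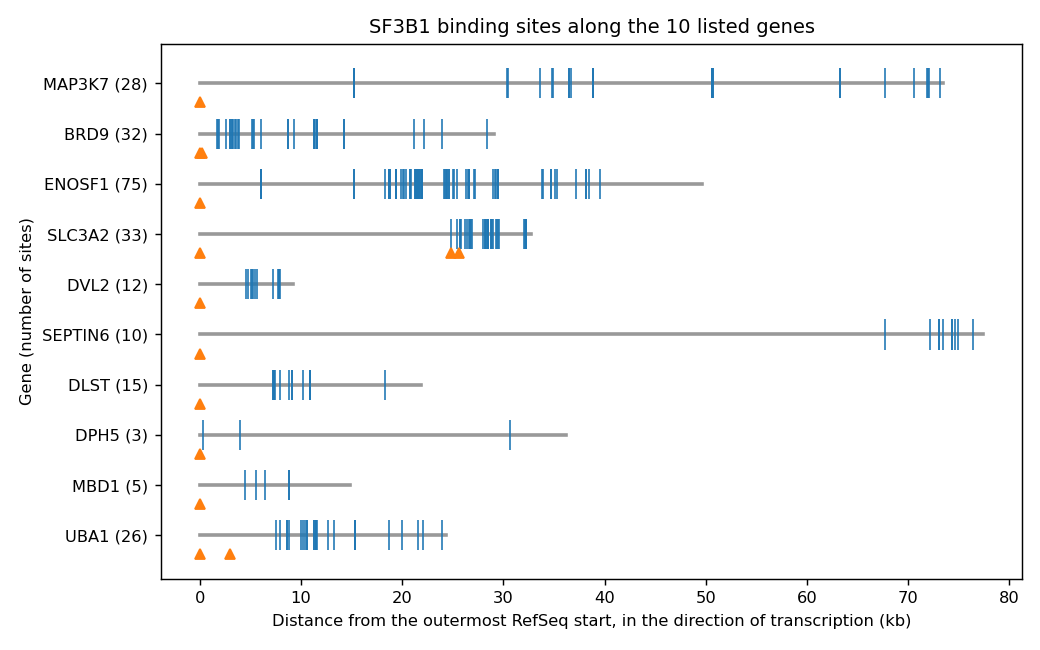
Each grey line is 1 listed gene, drawn from its outermost RefSeq start (distance in kb, in the direction of transcription), each blue tick is 1 SF3B1 binding site, and orange triangles mark annotated starts in the RefSeq promoter table. The 33 sites of SLC3A2 begin 24850 nt into the gene, just after an inner start, the 10 sites of SEPTIN6 lie in the last part of its span, and the 17 sites of the first group in BRD9 lie near its start.

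All of the genes had sites, and they differed widely in number and density. The number of sites ran from 3 in DPH5 to 75 in ENOSF1, with a median of 20.5, against a median of 7 in the 7609 protein-coding genes with a site. Relative to gene length, the median was 0.847 sites per kb against 0.199 in those genes, whose quartiles were 0.0706 and 0.51. SEPTIN6, with 0.129 sites per kb, and DPH5, with 0.083, lay below the median of all genes with a site, and the other 8 lay above it. Counts of sites are not corrected for the expression of a gene, since RNA levels were not used. Genes in which a splicing change has been reported are expressed genes, and the part of expression in these counts was not tested.

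**Figure D2:**
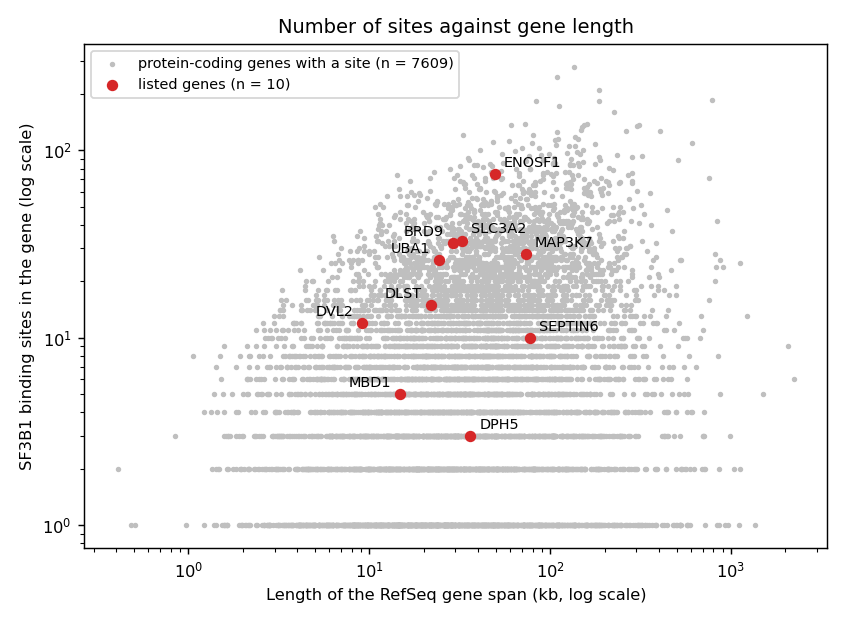
Each grey point is 1 of 7609 protein-coding genes with a site, placed by the length of its RefSeq span (kb, log scale) and its number of sites (log scale), and red points are the 10 listed genes. ENOSF1 has the most sites of these (75) and DPH5 the fewest (3), although their spans of 49.6 kb and 36.2 kb are of similar length.

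Among the signalling genes, MAP3K7 had scattered sites and DVL2 a single compact group. MAP3K7, also called TAK1, is a kinase that carries signals from cytokine receptors to the NF-κB and MAP kinase pathways. It spans positions 90513579 to 90587072 of chromosome 6, 73.5 kb on the minus strand, and had 28 sites (0.381 per kb). They were scattered over 8 groups separated by more than 2000 nt. The first 15190 nt held no site, and a further empty stretch of 15133 nt followed the first 3 sites. The last site lay 293 nt before the end of the gene. The most sites in any 1000 nt of this gene, 6 of the 28, fell within 139 nt, at 50624 to 50763 nt from the start, and 4 of them formed its largest cluster (positions 90536408 to 90536451). Neighbours at most 60 nt apart are called a cluster here.

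MAP3K7 also had 3 paired footprints. A paired footprint is a cluster made of 2 elements, within which sites follow each other at no more than 12 nt, and with 25 to 45 nt between the means of the elements. They lay at positions 90552188 to 90552235 (43 nt between elements), 90550558 to 90550602 (40 nt) and 90548185 to 90548220 (28.5 nt). All 3 fell in the middle of the gene, from 47.4% to 52.9% of its length. The third was the narrowest of all listed genes, with 1 site upstream and 2 downstream.

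DVL2 is a Dishevelled protein, which passes the signal from Wnt receptors to β-catenin. Its gene is the shortest of the 10, 9.18 kb on the minus strand of chromosome 17 (7225342 to 7234517), and had 12 sites, or 1.31 per kb. All 12 formed 1 group of 3.34 kb between 49.4% and 85.7% of the gene, so the first 4528 nt and the last 1308 nt were empty. Of its 9 clusters, 7 were single sites. The single paired footprint, at positions 7229294 to 7229329, had elements 31 nt apart.

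The chromatin genes are BRD9 and MBD1. BRD9 is a bromodomain subunit of the non-canonical BAF chromatin remodelling complex, and its RNA is known to gain a poison exon with mutant SF3B1. The gene spans 863741 to 892801 of chromosome 5 on the minus strand and had 32 sites (1.1 per kb). They crowded towards the start of the gene. The first group held 17 sites between 1660 and 6085 nt, the second 9 sites between 8683 and 11581 nt, and only 4 sites lay beyond the midpoint. Genes with 10 or more sites numbered 2965, and 5.7% of them had a lower share of sites beyond the midpoint than BRD9 (12.5%, against a median of 68.8%). The longest empty stretch between its sites, 6911 nt, ran from 14275 to 21186 nt.

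Few sites of BRD9 were paired at this spacing. Of the 32, 2 had a partner 25 to 45 nt away. These 2 made up the single paired footprint, at positions 887481 to 887528 with 43 nt between elements. The share, 6.25%, compares with a median of 38.2% (quartiles 27.3% and 48.8%) in genes with at least 10 sites, of which 3.74% had a lower share. Of the 24 clusters, 17 were single sites. With 20 to 50 nt allowed between elements, BRD9 had 3 paired footprints, and with 30 to 40 nt it had 0. In BRD9, 1 site also lay in the span of the protein-coding gene LOC128966726.

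MBD1 encodes a protein that binds methylated CpG and represses transcription. Its 14.9 kb on the minus strand of chromosome 18 (50266885 to 50281767) held 5 sites, 0.336 per kb. The first 3 were single sites at 4408, 5498 and 6469 nt, and the other two formed a paired footprint at positions 50272963 to 50273011, with 44 nt between elements. The last 6080 nt of the gene held no site.

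Of the metabolic genes, ENOSF1 stood apart in number. It encodes an enolase superfamily enzyme of fucose metabolism and overlaps TYMS, the gene of thymidylate synthase, tail to tail on the other strand. ENOSF1 spans 662986 to 712630 of chromosome 18 on the minus strand and had 75 sites, 31.4% of all listed sites and 1.51 per kb. Of the 7609 genes with a site, 92 had more sites and 98.8% had fewer. In density, 93.4% of these genes were lower.

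The sites of ENOSF1 lay mainly in its middle. A group of 35 sites covered 3.72 kb, from 18273 to 21990 nt, at 9.41 sites per kb, and a group of 24 sites covered 5.35 kb, from 24082 to 29435 nt, at 4.48 per kb. The first group held 46.7% of the sites and the second 32%. The densest 1000 nt of the 10 genes, with 17 sites between 21287 and 21990 nt, lay in the first of them. The largest cluster of the 10 genes was also there: 7 sites in 6 elements over 122 nt at positions 693850 to 693976. A cluster of 5 sites in which no pair of neighbours was within 12 nt lay at 690980 to 691051. Its neighbours were 13 to 19 nt apart, so that it did not resolve into 2 elements.

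In ENOSF1, 30 sites, 40% of its total, had a partner 25 to 45 nt away. It had 5 paired footprints, which held 13 sites. The narrowest footprint (33 nt, positions 674422 to 674459) and the widest (45 nt, positions 677887 to 677936) both lay in the sparser downstream part. The others were at positions 693199 to 693250 (43 nt), 686004 to 686060 (43.5 nt) and 678748 to 678791 (39 nt). When neighbouring elements of clusters with any number of elements were counted, the number in ENOSF1 rose from 5 to 10. There were 19 pairs of sites 25 to 45 nt apart and 17 pairs 46 to 66 nt apart in this gene.

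The overlap of ENOSF1 with TYMS is 10.6 kb long (662986 to 673578). On the strand of ENOSF1 it held 1 site, the last of the gene at 39570 nt, and on the strand of TYMS it held 12 sites. All 12 plus-strand sites inside the ENOSF1 span were in this overlap. Counted without regard to strand, ENOSF1 would have had 87 sites. It was the only listed gene with sites on the opposite strand.

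SLC3A2 encodes the heavy chain of CD98, which brings amino acid transporters to the cell surface. Its RefSeq span on the plus strand of chromosome 11 is 32.8 kb (62856109 to 62888860), and its 33 sites gave 1.01 per kb. All 33 lay in the last 7.97 kb. The promoter table lists 3 starts for SLC3A2, and the first site, at 24850 nt, follows the start at position 62880896 by 62 nt. Measured from that start the density was 4.14 sites per kb, a value above that of 99.6% of genes with a site measured over their whole spans. From the same start, 11 of the 33 sites lay beyond the midpoint of the gene, whereas all 33 did from the outermost start. The 24787 nt between the outermost start and this one held no site.

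SLC3A2 had 4 paired footprints, at positions 62881840 to 62881890 (42 nt), 62884398 to 62884441 (39 nt), 62884579 to 62884628 (42.5 nt) and 62885605 to 62885646 (37 nt). The second and the third are neighbours, and all 4 lie in the first of the gene's 2 groups of sites, which held 28 of the 33. Pairs of sites 140 to 180 nt apart numbered 13 in SLC3A2, against 3 pairs 60 to 100 nt apart. ENOSF1 had 22 against 18, and the other 8 listed genes had 6 against 15 in all. Together the 10 genes had 41 against 36 such pairs, a ratio of 1.14, while all protein-coding genes had 12099 against 7026, a ratio of 1.72. The largest cluster of SLC3A2, 4 sites over 90 nt at positions 62888269 to 62888363, lay near the end of the gene, and the last site was 499 nt before it.

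DLST encodes the succinyltransferase of the 2-oxoglutarate dehydrogenase complex of the citric acid cycle. The gene, 21.8 kb on the plus strand of chromosome 14 (74881916 to 74903743), had 15 sites, 0.687 per kb. Of these, 14 lay between 7212 and 10905 nt, a group of 3.69 kb, and 1 lay alone at 18323 nt after an empty stretch of 7418 nt. This left 1 of 15 sites beyond the midpoint, 6.67%, and 3.81% of genes with at least 10 sites had a lower share. The only paired footprint was also the largest cluster, at positions 74892776 to 74892822. It had 3 sites upstream and 1 downstream, with 34.67 nt between the means, the most unequal footprint of the 10 genes.

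The remaining genes serve protein modification and the cytoskeleton. UBA1 encodes the main enzyme that activates ubiquitin. Its 26 sites on the plus strand of the X chromosome (47190847 to 47215128, 24.3 kb) gave 1.07 per kb. The first lay 7481 nt after the outermost start and 4499 nt after an inner start at position 47193829. A group of 18 sites covered 5.73 kb, up to 13209 nt, after which sites were sparse until the last, 384 nt before the end. Like BRD9, UBA1 had few close pairs: 4 of 26 sites, 15.4%, had a partner 25 to 45 nt away, and 7.55% of genes with at least 10 sites had a lower share. Its single paired footprint was at 47201430 to 47201471, with 37 nt between elements. With 20 to 50 nt allowed between elements, UBA1 had 3 paired footprints. The non-coding gene LOC105373194 overlaps the downstream part of UBA1, and 8 of the sites lie in both spans.

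**Figure D3:**
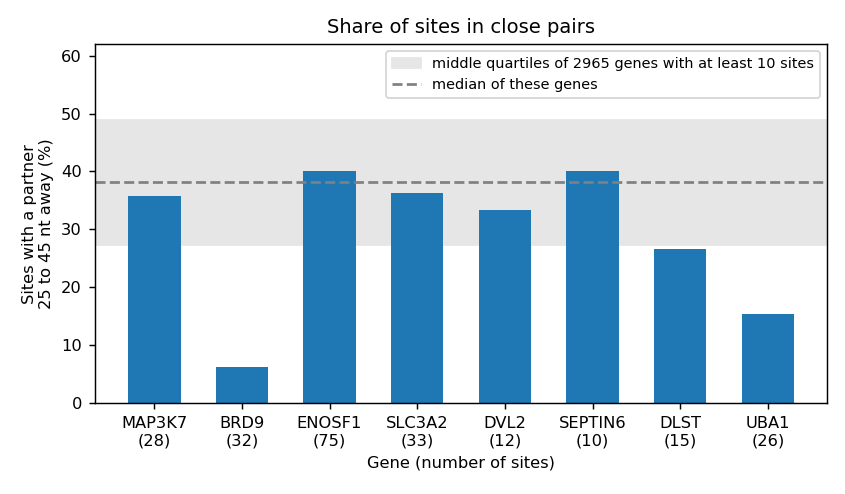
Bars give the share of sites (%) that have another site of the same gene 25 to 45 nt away, for the 8 listed genes that have 10 sites or more, and the grey band and dashed line give the quartiles (27.3% and 48.8%) and median (38.2%) of all 2965 genes with as many. BRD9 (6.25%) and UBA1 (15.4%) are well below the band, DLST (26.7%) is just under it, and the other 5 lie inside it.

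SEPTIN6, one of the septins that assemble into filaments at the cell cortex and in dividing cells, has the longest span of the 10 genes, 77.4 kb on the minus strand of the X chromosome (119615724 to 119693168), but 10 sites. The first 67742 nt were empty. All 10 sites lay between 87.5% and 98.7% of the span, and 9 of them in a group of 4.22 kb. Between the first and the last site the density was 1.15 per kb, against 0.129 over the whole gene. In SEPTIN6, 4 of the 10 sites belonged to 2 paired footprints, at positions 119620061 to 119620101 (36 nt) and 119618796 to 119618843 (43 nt). The microRNA gene MIR766, which lies inside the span, held 0 sites.

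DPH5 encodes a methyltransferase for diphthamide, a modified histidine of translation elongation factor 2. It had 3 sites in 36.2 kb on the minus strand of chromosome 1 (100989623 to 101025784). They were single sites at 294, 3976 and 30620 nt, 3682 and 26644 nt apart, with no neighbours within 60 nt and no paired footprint. The first was the only listed site within 1000 nt of the outermost start of its gene. The last lies in the part of DPH5 that overlaps SLC30A7, on the strand of DPH5.

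The 239 sites formed 153 clusters, of which 99 (64.7%, 95% Wilson interval 56.9% to 71.8%) were single sites, 33 held 2 sites and 21 held 3 or more. In all protein-coding genes with a site, 63.2% of clusters were single. A cluster of 3 or more sites was found in 7 of the 10 genes, against 17.8% of protein-coding genes and 46.9% of those with a site. These shares are not adjusted for the number of sites per gene, which was higher in the listed genes (median 20.5 against 7). ENOSF1 held 9 of the 21 such clusters. The intervals given for shares cover counting error only, and sites of a gene are not independent.

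Sites with a partner 25 to 45 nt away made up a smaller share of the sites of the listed genes than of all sites in genes. The difference was not tested. BRD9 and UBA1 had the lowest shares of sites with a partner among the listed genes with at least 10 sites. They were left out after the data were seen, which raises the share by construction. MAP3K7, SLC3A2, DVL2 and DLST also lay below the median of 38.2% of genes with at least 10 sites, and ENOSF1 and SEPTIN6 lay above it. Of the 239 sites, 72 had a partner 25 to 45 nt away, 30.1% (interval 24.7% to 36.2%), against 36.5% in all protein-coding genes with a site. Without BRD9 and UBA1 it was 36.5%, the same as in all genes, and without ENOSF1 it was 25.6%. Paired footprints held 46 sites, 19.2% (interval 14.7% to 24.7%), against 28.6%, and 23.2% without BRD9 and UBA1. Pairs of sites 25 to 45 nt apart numbered 43 and pairs 46 to 66 nt apart 30, a ratio of 1.43, whereas the ratio in all protein-coding genes was 3.59. Without ENOSF1 the ratio was 1.85, from 24 and 13 pairs, and without BRD9 and UBA1 it was 1.54, from 40 and 26 pairs. At distances of 20 to 39 nt between neighbours, the listed genes had 9.61% of their distances and all genes 13.8%. At 40 to 79 nt they had 10.5% and all genes 6.83%. Neighbours at most 60 nt apart made up 37.55% of the distances in the listed genes (interval 31.54% to 43.98%), against 39.66% in all genes.

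**Figure D4:**
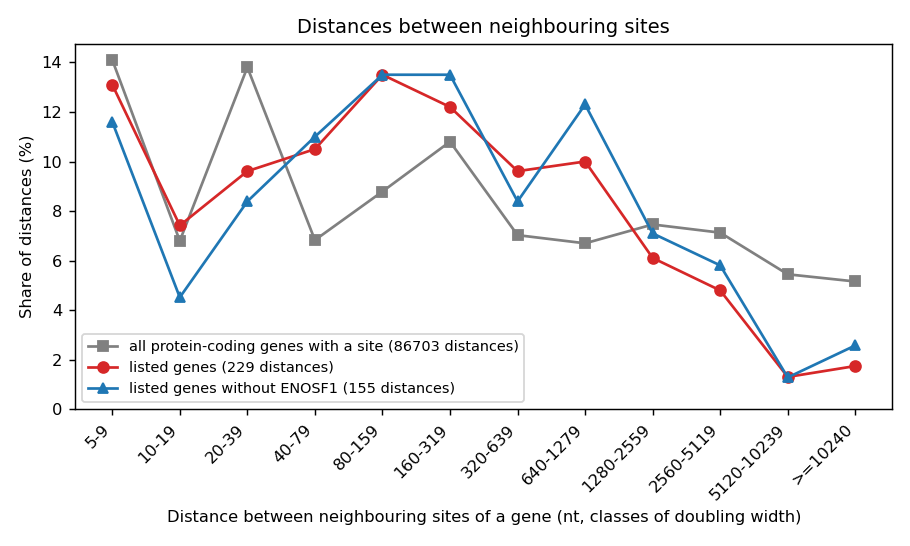
Share of distances (%) between neighbouring sites of a gene in classes of doubling width (nt), for all protein-coding genes with a site (grey squares, 86703 distances), the listed genes (red circles, 229) and the listed genes without ENOSF1 (blue triangles, 155). After its highest value at 5 to 9 nt (14.1%), the grey line has a second peak at 20 to 39 nt (13.8%), where the listed genes are lower (9.61%), and the listed genes exceed it from 40 to 79 nt (10.5% against 6.83%) up to 640 to 1279 nt (10% against 6.7%).

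At least 1 paired footprint was present in 9 of the 10 genes, against 21.1% of protein-coding genes and 55.6% of those with a site. A gene with more sites has more room for a footprint, and the listed genes had a median of 20.5 sites against 7. Genes with a like number of sites were not compared here. The genes had 19 footprints in all: 5 in ENOSF1, 4 in SLC3A2, 3 in MAP3K7, 2 in SEPTIN6, 1 each in BRD9, DVL2, DLST, MBD1 and UBA1, and 0 in DPH5. Their elements were 28.5 to 45 nt apart with a median of 40 nt (quartiles 36.5 and 43 nt), whereas the median over 10454 footprints of all genes was 36 nt (quartiles 32 and 39.5 nt). Elements at least 40 nt apart were found in 10 of the 19 footprints, 52.6%, against 24.4% of all footprints. The 40 nt cut was chosen after the data were seen and equals the median of these 19 footprints. The 52.6% therefore follows from the cut and adds nothing to the medians. Elements under 30 nt apart were found in 1 footprint, 5.26%, against 13% of all footprints. The 10 wide footprints came from 6 genes, and without ENOSF1 the median was 39.5 nt. In 13 of the 19 footprints each element was 1 site (68.4%, against 55.8%). There were 24 sites in upstream elements and 22 in downstream ones. The number of footprints depended on the spacing allowed. With 30 to 40 nt in place of 25 to 45 nt it was 9, and with 20 to 50 nt it was 29.

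**Figure D5:**
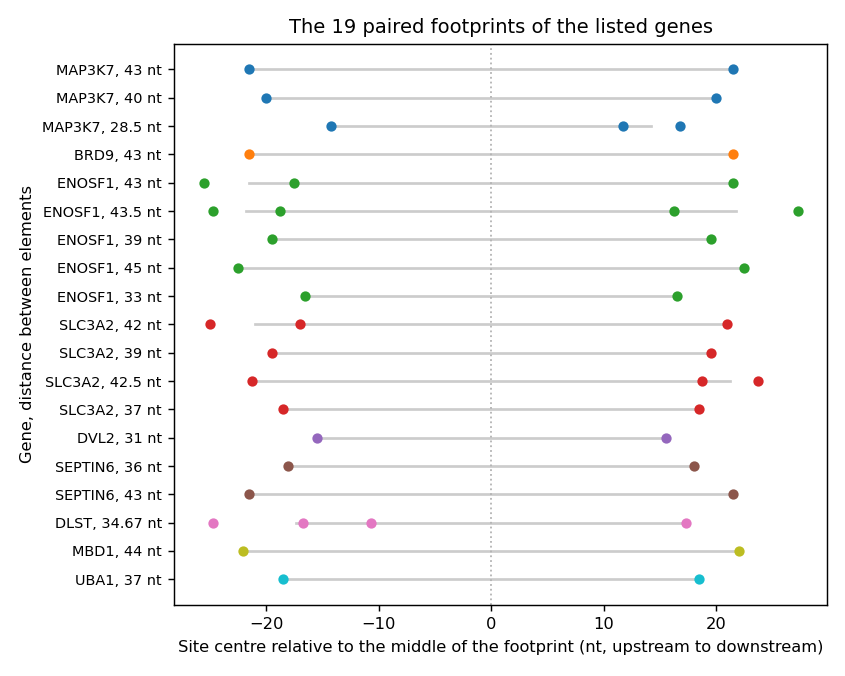
Each row is 1 of the 19 paired footprints of the listed genes, labelled with its gene and the distance between the means of its elements (nt), points are site centres relative to the middle of the footprint (nt, upstream on the left), and the grey line joins the element means. The distances run from 28.5 nt in MAP3K7 to 45 nt in ENOSF1, and 13 of the 19 rows have 1 site in each element.

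Along the genes, 117 of the 239 sites lay beyond the midpoint of the RefSeq span, 49% (interval 42.7% to 55.3%), against 63.4% in all protein-coding genes with a site. Single genes differed widely. All sites of SLC3A2 and SEPTIN6 and 11 of 12 in DVL2 lay beyond the midpoint, whereas 4 of 32 did in BRD9 and 1 of 15 in DLST. High shares were common: of the 2965 genes with at least 10 sites, 14.9% had all of their sites beyond the midpoint. The upper quartile in these genes was 90%. Counting SLC3A2 from its inner start lowered the pooled share of the listed genes to 39.8%, and without ENOSF1 it was 54.3%. The first 10% of the gene held 5 sites (2.09%, against 4.63% in all genes with a site), 4 in BRD9 and 1 in DPH5. The last 10% held 25 sites (10.5%, interval 7.19% to 15%, against 13.5%), of which SEPTIN6 had 9, SLC3A2 7 and MAP3K7 6, while 5 genes had none there. The last site lay within 1013 nt of the gene end in MAP3K7, BRD9, SLC3A2, SEPTIN6 and UBA1, and at least 1308 nt from it in the other genes.

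A further 11 genes reported elsewhere to change 3′ splice site use with mutant SF3B1 were counted in the same way. These genes, too, were chosen with earlier results of these data known. Sites were present in 6 of them, against 38% of protein-coding genes, and 5 had at least 5 sites, against 23.1%. They held 69 sites in all. PPP2R5A, a regulatory subunit of protein phosphatase 2A, had the most sites, 22, but a density of 0.288 per kb over 76.4 kb. COASY, the enzyme that completes coenzyme A synthesis, had 8 sites in 4.13 kb, 1.94 per kb. Over whole RefSeq spans this exceeds each of the 10 listed genes, whereas SLC3A2 measured from its inner start is denser (4.14 per kb). TMEM14C, which carries a haem precursor into mitochondria, had 13 sites in 8.06 kb (1.61 per kb). TTI1 had 16 sites, PPOX had 9 and ZNF91 had 1. ORAI2, HINT2, ARMC9, ERFE and ANKHD1 had 0 sites. A count of 0 may also come from RNA too scarce to yield sites in all replicates, which was not tested.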

How the data were processed

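One table was used, a BED list of SF3B1 binding sites. Per the file headers, the authors merged sites of 5 nt and kept those found in every replicate of one condition or the other. The deposited score column is 0 in every row and was not used. The submitters' processing notes name STAR, UMI-tools 1.0.0, bedtools 2.27.1 and FastQC 0.11.8 and the builds GRCh38.p10 and GRCh38.p12; the site caller is not given in the sources used here.

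Positions were made 1-based, and a site was placed by its centre. Gene spans came from RefSeq (GRCh38.p14) and strands from its promoter table, which names all 10 listed genes. For 4194 of 20037 protein-coding genes without an entry there, the strand with more sites was used, which can raise their counts. A site in overlapping genes of 1 strand was counted in each. Merging limits resolution: centres were at least 5 nt apart.

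The listed genes and the further 11 genes were chosen with earlier results of these data known, and 1 other planned gene is not reported here. All 10 listed genes were named. Single features were chosen by rule: first and last site, largest cluster, largest gap, and all paired footprints in genes with at most 6 of them. Not every first or last site, largest cluster and largest gap is named for each gene. Marker genes, groups linked at 2000 nt, pair counts, the 40 nt width and comparisons with genes of at least 10 sites were chosen after the data were seen. The planned positions relative to splice sites and the use of scores were not carried out. No test was made, since the list merges the replicates. The procedure was tested on simulated data, 200 sets with known clusters and footprints, and all 200 were recovered. The simulated clusters lay far apart, and each element of a simulated footprint was 1 site. Clusters near each other, clusters of many elements and footprints with larger elements were not covered. Versions were SciPy 1.17.1, pandas 2.3.3 and NumPy 2.4.6 under Python 3.11.15.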

Additional observations from a re-analysis of the deposited data

How the results depend on the processing

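Of 22 recalculations of values over the 10 genes, 15 stayed within 1.5 times of a count or density or within the interval of a share, and 7 moved, where any change of a median spacing was counted as moved. Paired footprints numbered 29 with a spacing of 20 to 50 nt and 9 with 30 to 40 nt, against 19, since the definition itself was changed. The median spacing was 39 nt both as the distance of the nearest sites and with clusters of any number of elements, against 40 nt. The share of sites beyond the midpoint was 37.24% over the span from the first to the last site and 39.75% with SLC3A2 counted from its inner start, against 48.95%. The share of sites with a partner 25 to 45 nt away was 36.46% without BRD9 and UBA1, against 30.13%. The inner start of SLC3A2 and the omission of genes were chosen after seeing the data. The number of sites ranged from 219 (1 site per region number) to 251 (either strand). Of 130 recalculations for single genes, 13 moved, all of them counts of paired footprints. Replicates are merged, so none could be left out in turn. No paired analysis was possible because replicates have no columns of their own. Alternatives that need exons or scores were not run.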
